A study of Mus musculus with 3 samples.

Results

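The genes described here are the mouse cytochrome P450 genes of the Cyp2b, Cyp2c, Cyp2d, Cyp2e, Cyp2f, Cyp2g, Cyp2j, Cyp2r, Cyp2s, Cyp2u and Cyp3a subfamilies. They were chosen by symbol alone, with pseudogenes left out, and number 51 of the 32285 features counted. In hepatocyte-like barcodes 30 of the 51 had at least 20 unique molecular identifiers (UMIs, the tags that count transcripts), summed over 3 libraries. Of these, 22 had at least 200 UMIs and 8 had fewer. A further 8 genes had 1 to 19 UMIs and 13 had 0, and these 21 are only counted.

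The libraries are droplet single-cell profiles of livers from male C57BL/6 mice aged 9 weeks, made to examine loss of Adar1, the gene of an RNA-editing enzyme. All mice carried Ifih1-/-, that is, no MDA5 sensor of double-stranded RNA, and Alb-Cre+, a recombinase driven by the albumin promoter in hepatocytes. On that shared background the Adar1 genotypes were Adar1wt/wt, Adar1wt/flox and Adar1flox/flox, named below by the alleles alone. Where 3 values follow each other they stand for wt/wt first, wt/flox next and flox/flox last. Each genotype had 1 library, so no difference has a replicate check and no test was possible. No library without Alb-Cre or with intact Ifih1 was compared.

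P450 enzymes are haem proteins of the endoplasmic reticulum that insert oxygen into drugs, steroids, fatty acids and other lipids, with electrons passed on by P450 oxidoreductase. The CYP2 and CYP3A families hold the main drug-metabolising enzymes of the liver, and their genes stand in tandem clusters of close copies. Hepatocyte nuclear factors, the xenobiotic receptors PXR and CAR, growth hormone and the position of the cell between portal and central vein are known to set their levels.

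Among 9878, 9920 and 9772 kept barcodes, 8145, 7208 and 7749 were hepatocyte-like and held 7730025, 7036648 and 8172112 UMIs. All 12 hepatocyte markers were detected in these barcodes in each library, with a summed level of 97197, 96751 and 82403 CPM (counts per 1000000 hepatocyte UMIs). This does not set hepatocytes apart. In every cluster of another name, 11 of the 12 were also found in at least 50% of barcodes. The name hepatocyte-like thus rests on too few markers of another class. Median depth of hepatocyte-like barcodes was 825, 862 and 904 UMIs, and their median mitochondrial share was 5.01%, 4.18% and 7.91%. Different clusters held most hepatocyte-like barcodes: cluster 9 held 22.4% of those of wt/wt, cluster 8 held 35.5% of those of wt/flox, and clusters 1 and 3 held 36.0% and 30.6% of those of flox/flox. Cluster 1 was led by Isg15, Ifit1 and Ifi27, genes known to be induced by interferon. Cluster 3 had the bile duct marker Tm4sf4 among its 10 leading genes, but below the 4-fold used for naming clusters. Its other leading genes were Cyp2a4, Slc39a4, Cdh1, Mup20, Cp and mitochondrial genes. No marker of another class met the naming thresholds in cluster 3, and all 12 hepatocyte markers were found in at least 50% of its barcodes. The cholangiocyte list of 8 genes summed to 225, 259 and 354 CPM over the hepatocyte-like class. The Kupffer list stood at 78.0, 96.5 and 135 CPM there, and the endothelial list at 28.6, 30.3 and 33.8 CPM. The monocyte or macrophage list stood at 440, 519 and 648 CPM and the plasmacytoid dendritic list at 215, 294 and 395 CPM. Lowest in flox/flox were the stellate or fibroblast list, at 36.2, 28.4 and 24.0 CPM, and the erythroid list, at 96.9, 130 and 39.2 CPM. Adar transcripts, at 10.3, 16.9 and 35.5 CPM, ran opposite to the labels, with the highest level in flox/flox. A tag from the transcript end outside the deleted part would not show a deletion, so each direction below rests on the labels. The libraries shared 20 to 32 barcode sequences per pair. How the marker levels, the mitochondrial share and the cluster makeup bear on the values below was not tested, apart from the values given without cluster 3.

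Promoter sequences are shown for 6 genes whose levels differed between libraries or that form near-identical pairs. Each is the 250 bases before the RefSeq start on the gene's own strand (RefSeq, GRCm38.p6), with matches to the motifs named below in capitals. Cyp3a11 is at chr5:145879855-145880104, minus strand. Cyp3a25 is at chr5:146009619-146009868, minus strand, and Cyp3a59 at chr5:146079008-146079257, plus strand. Cyp2c29 is at chr19:39286835-39287084, plus strand, and Cyp2c38 at chr19:39463076-39463325, minus strand. Cyp2b10 is at chr7:25897408-25897657, plus strand.
Cyp3a11: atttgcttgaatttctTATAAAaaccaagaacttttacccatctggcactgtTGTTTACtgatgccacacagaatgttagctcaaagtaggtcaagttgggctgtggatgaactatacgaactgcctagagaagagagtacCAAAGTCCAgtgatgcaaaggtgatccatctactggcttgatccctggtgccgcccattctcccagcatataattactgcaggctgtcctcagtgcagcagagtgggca
Cyp3a25: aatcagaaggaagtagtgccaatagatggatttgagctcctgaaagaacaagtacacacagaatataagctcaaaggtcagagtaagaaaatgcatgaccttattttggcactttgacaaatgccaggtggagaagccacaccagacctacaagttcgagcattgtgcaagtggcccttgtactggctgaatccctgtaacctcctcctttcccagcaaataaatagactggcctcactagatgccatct
Cyp3a59: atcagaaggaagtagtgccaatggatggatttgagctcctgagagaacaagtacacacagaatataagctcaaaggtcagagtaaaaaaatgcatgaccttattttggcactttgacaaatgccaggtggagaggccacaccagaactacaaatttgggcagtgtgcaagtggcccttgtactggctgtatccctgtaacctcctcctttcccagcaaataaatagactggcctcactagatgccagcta
Cyp2c29: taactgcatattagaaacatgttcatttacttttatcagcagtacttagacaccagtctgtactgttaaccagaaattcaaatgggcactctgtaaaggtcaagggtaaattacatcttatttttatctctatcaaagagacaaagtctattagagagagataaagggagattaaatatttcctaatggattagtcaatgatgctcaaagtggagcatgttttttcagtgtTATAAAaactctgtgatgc
Cyp2c38: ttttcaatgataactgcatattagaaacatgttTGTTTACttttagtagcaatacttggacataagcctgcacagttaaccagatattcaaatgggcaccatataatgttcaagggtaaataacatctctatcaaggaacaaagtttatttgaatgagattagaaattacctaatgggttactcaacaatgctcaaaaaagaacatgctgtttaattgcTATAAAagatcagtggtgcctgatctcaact
Cyp2b10: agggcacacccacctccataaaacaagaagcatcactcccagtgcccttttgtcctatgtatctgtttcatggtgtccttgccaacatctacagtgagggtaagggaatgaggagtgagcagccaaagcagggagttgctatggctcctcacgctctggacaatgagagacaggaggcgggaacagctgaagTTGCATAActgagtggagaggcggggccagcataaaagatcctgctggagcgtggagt

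A promoter entry was matched for 43 of the 51 genes and for 24 of the 30 measured ones. Cyp2c23, Cyp2c54, Cyp2d12, Cyp2d22, Cyp2g1 and Cyp2u1 had no entry. On both strands, 7 motifs were searched. The TATA-box letters TATAAA were found in 19 of 43 promoters (44.2%), against 13.0% of all 27025 promoters of the same length. The match began 28 to 31 bases before the start in Cyp2c38, Cyp2c55, Cyp2c70, Cyp2d9, Cyp2d10, Cyp2d26 and Cyp2e1. For Cyp2c70, Cyp2d9, Cyp2d10 and Cyp2d26 the match was on the opposite strand, so the gene's own strand reads TTTATA. In Cyp2c29 it began 19 bases before the start, and in Cyp3a11 at 234 bases. The letters CAAAGTCCA, a core of the site of the hepatocyte nuclear factor HNF4A, were found in 10 of 43 (23.3%) against 0.381% of all promoters. Measured genes with it were Cyp2c40, Cyp2c67, Cyp2c68, Cyp2c70 and Cyp3a11. The forkhead letters TGTTTAC were in 18.6% against 3.09%, with Cyp2c38, Cyp2j5 and Cyp3a11 among the measured genes. The D-box letters TTATGCAA, read by clock-linked PAR bZIP factors, were in 6.98% against 0.744%, and of the measured genes in Cyp2b10. The STAT-type letters TTCNNNGAA, an interferon-response type motif and an HNF1-type motif were in none of the 24 measured promoters, and in 4.65%, 2.33% and 0.00% of the 43 against 7.18%, 3.04% and 0.0074% of all. No matches overlapped in the measured genes. These are letter matches in this window and do not show binding; the promoters are not independent, since the genes are copies of each other.

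The Cyp3a25 and Cyp3a59 promoters were identical at 94.8% of positions. Cyp2c37 and Cyp2c50 matched at 84.3%, Cyp2d9 and Cyp2d10 at 82.8%, Cyp2c40 and Cyp2c68 at 73.5%, and Cyp2c29 and Cyp2c38 at 68.8%. Likeness at the other end of the transcript bears on the counts, because reads come from transcript ends. Of the 50-base words in the last 400 bases, 67.0% occurred in another P450 gene for Cyp2c40, 51.6% for Cyp2c68 and 37.3% for Cyp2c67. In the Cyp2d subfamily the share was 33.0% for Cyp2d26, 29.9% for Cyp2d40, 26.8% for Cyp2d9 and 25.1% for Cyp2d10. Levels of these genes are uncertain to the extent that reads from shared words were assigned to another copy or dropped, which is not given in the sources used here. In all, 15 of the 30 measured genes had a shared word.

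All 51 genes together took 7936 CPM (95% counting interval 7874 to 8000), 8370.5 CPM (8303 to 8438) and 7308 CPM (7249 to 7367). One UMI stands for 1 transcript end whatever its length, so CPM needs no length correction between genes. Setting genes side by side is less certain for those with shared transcript ends. Cyp2e1, Cyp3a11 and Cyp2f2 held 58.4%, 54.3% and 54.9% of these UMIs. Cyp2e1 was first in each library; Cyp3a11 was the second and Cyp2f2 the third in wt/wt and wt/flox. In flox/flox Cyp2f2 and Cyp3a11 did not differ beyond counting error. Cyp3a25 was the fourth in each library.

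**Figure D1:**
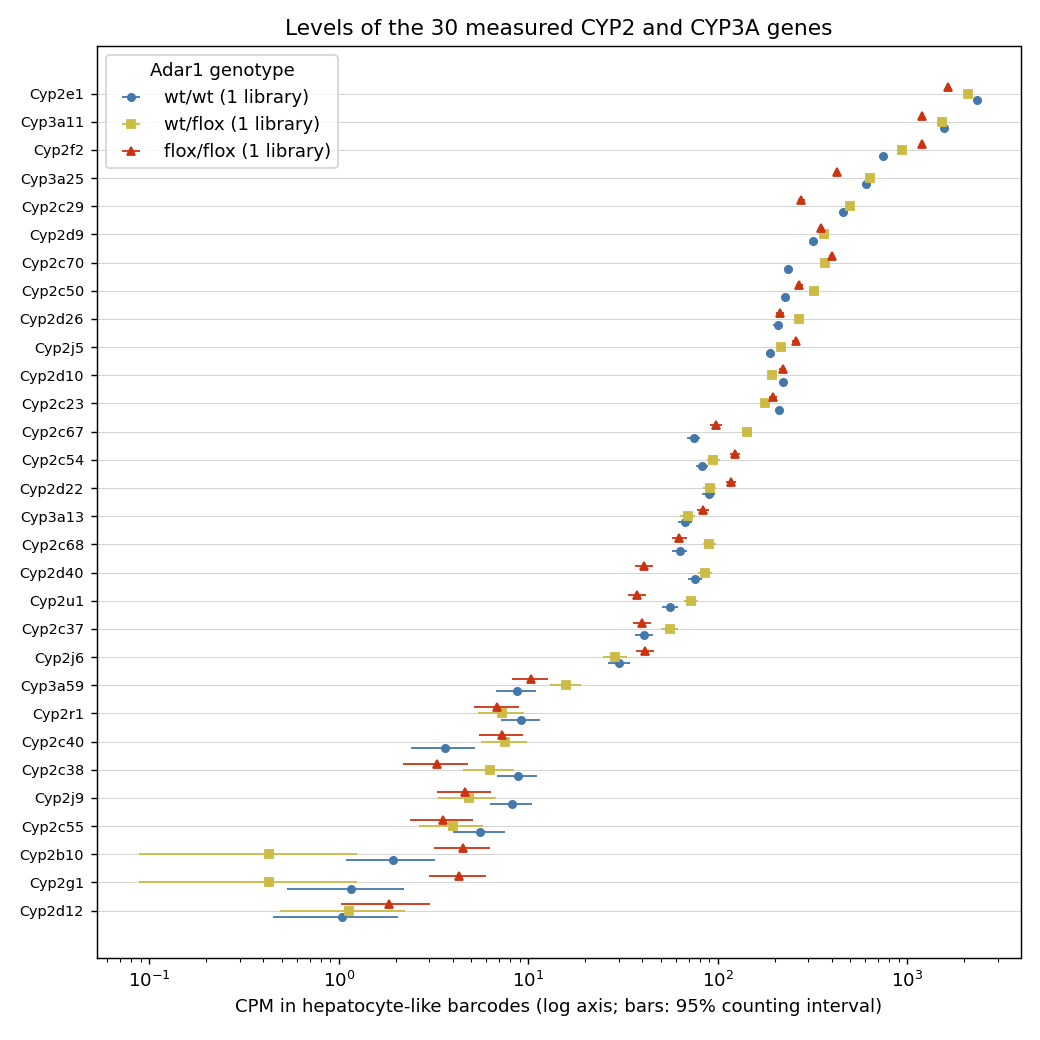
Level of each of the 30 measured genes in hepatocyte-like barcodes, as CPM on a log axis, with 1 point per library and bars for the 95% counting interval. Cyp2e1, Cyp3a11 and Cyp2f2 lead in every library, and Cyp2b10, Cyp2g1 and Cyp2d12 lie under 5 CPM in each library, with wide intervals.

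Between the libraries labelled flox/flox and wt/wt, 6 of the 30 measured genes were at least 1.5-fold higher and 5 at least 1.5-fold lower in flox/flox. Of all 11337 genes with at least 20 UMIs, 14.3% were that much higher and 7.42% that much lower. The median log2 ratio was 0.09 for the P450 genes and 0.08 for all. Between flox/flox and wt/flox, 3 of the 30 were higher and 6 lower, against 13.3% and 9.80% of all genes, with medians of -0.07 and 0.04. Between wt/flox and wt/wt, 4 of the 30 were higher and 3 lower in wt/flox, against 9.93% and 6.95% of all genes, with medians of 0.13 and 0.04. Members lay on both sides of 0 in each comparison and are described one by one. In barcodes of at least 2000 UMIs, few in number, 21 of the genes were measured. Of these 21, 14 were higher and 1 lower in flox/flox than in wt/wt. The median log2 ratio of all genes at that setting was 0.16. The share of all genes there is not given, and the 14.3% and 7.42% above do not apply to it. The counts of 14 and 1 are thus not a result about the P450 genes. Comparisons share libraries, so their values are set side by side and are not independent.

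**Figure D2:**
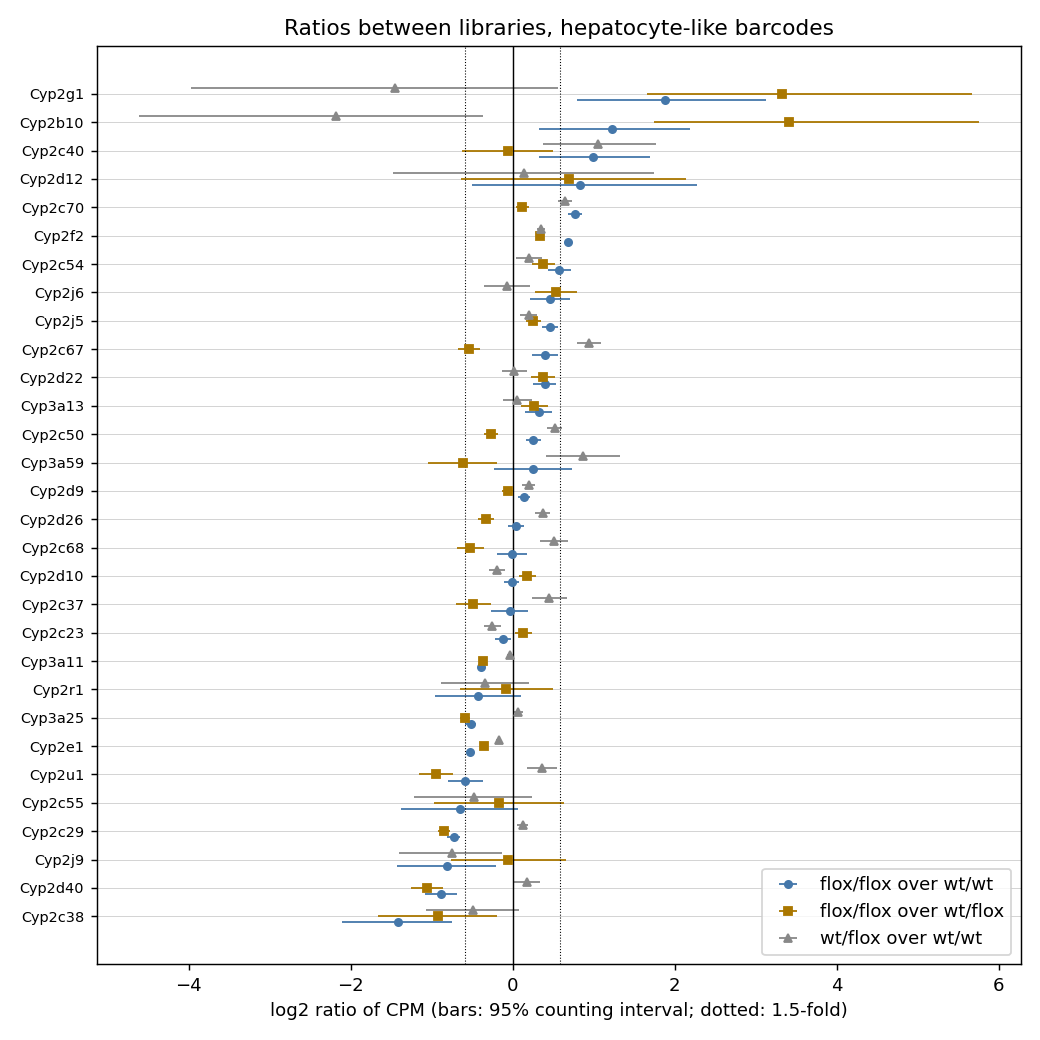
Log2 ratio of CPM between libraries for the 30 measured genes, with 95% counting intervals and dotted lines at 1.5-fold. In flox/flox against wt/wt the genes run from Cyp2g1 at 1.88 to Cyp2c38 at -1.41, and intervals widen for genes of few UMIs.

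Cyp2e1, Cyp3a11 and Cyp3a25, 3 of the 4 most abundant genes in each library, were lower in flox/flox than in either other library. Cyp2e1 (ENSMUSG00000025479, mm10 chromosome 7, 140763739 to 140774987), which oxidises ethanol and paracetamol, stood at 2339.8, 2077 and 1629.6 CPM. The libraries lay in that order with no overlap of counting intervals. The log2 ratio of flox/flox was -0.52 (95% counting interval -0.55 to -0.49) against wt/wt and -0.35 (-0.38 to -0.32) against wt/flox. From wt/wt to wt/flox it was -0.17 (-0.20 to -0.14). Cyp2e1 values in barcodes of at least 2000 UMIs are not given here. The summed level of all genes of the set was highest in flox/flox at that setting.

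Cyp3a11 (ENSMUSG00000056035, chromosome 5, 145854426 to 145879964), the main PXR-inducible Cyp3a enzyme of mouse liver, stood at 1558, 1528 and 1189.9 CPM. Here wt/wt and wt/flox did not differ beyond counting error and flox/flox was below both, at -0.39 (-0.43 to -0.35) and -0.36 (-0.40 to -0.32). Cyp3a25 (ENSMUSG00000029630, chromosome 5, 145977194 to 146009618) was also lowest in flox/flox, with 608, 639 and 424 CPM and log2 ratios of -0.52 (-0.58 to -0.46) and -0.59 (-0.66 to -0.53). The Cyp3a subfamily did not move as 1 block, since Cyp3a13, which lies apart from the other Cyp3a genes on chromosome 5, stood at 66.9, 69.5 and 83.6 CPM. Cyp3a59, whose promoter is nearly that of Cyp3a25, stood at 8.67, 15.8 and 10.3 CPM, highest in wt/flox. Its ratio was 0.86 (0.41 to 1.32) for wt/flox against wt/wt and -0.62 (-1.04 to -0.20) for flox/flox against wt/flox. Summed over the subfamily the level was 2242, 2252 and 1708 CPM.

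In barcodes of at least 2000 UMIs, of which there were 118, 99 and 374, Cyp3a11 was higher in flox/flox than in wt/wt, at 0.40, and so was Cyp3a25, at 0.80. Without cluster 3 the Cyp3a11 ratios were -0.63 against wt/wt and -0.61 against wt/flox.

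Cyp2c genes, which metabolise drugs and turn arachidonic acid into epoxides and hydroxy acids, differed in both directions. Summed, the 15 genes stood at 1406, 1766 and 1476 CPM. Cyp2c29 (ENSMUSG00000003053, chromosome 19, 39269405 to 39330713), known as CAR-inducible, stood at 456, 497 and 275 CPM. It was low in flox/flox only, with ratios of -0.73 (-0.81 to -0.65) against wt/wt and -0.85 (-0.93 to -0.77) against wt/flox. In barcodes of at least 2000 UMIs these ratios were -0.13 and -0.42.

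Cyp2c38, the neighbour of Cyp2c29 with a related promoter, had 68, 44 and 27 UMIs, or 8.80, 6.25 and 3.30 CPM. The flox/flox value was lowest, at -1.41 (-2.11 to -0.75) against wt/wt and -0.92 (-1.67 to -0.20) against wt/flox. Cyp2c55, a gene also known from the colon, stood between 3.55 and 5.56 CPM in the 3 libraries.

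Cyp2c70 (ENSMUSG00000060613, chromosome 19, 40153353 to 40187333), which makes the mouse-specific muricholic bile acids, was lowest in wt/wt. Its levels were 234, 366 and 398 CPM, with ratios against wt/wt of 0.65 (0.56 to 0.73) for wt/flox and 0.77 (0.68 to 0.85) for flox/flox. The ratio of flox/flox against wt/flox was 0.12 (0.05 to 0.20). Cyp2c40 was also lowest in wt/wt, at a low level, with 3.62, 7.53 and 7.22 CPM from 28, 53 and 59 UMIs. Its ratios against wt/wt were 1.06 (0.37 to 1.77) and 1.00 (0.32 to 1.70), the last 1.86 in barcodes of at least 1000 UMIs, and 67.0% of the words of its transcript end are shared with another P450 gene.

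A further set of Cyp2c genes was highest in wt/flox. Cyp2c67 stood at 74.4, 143 and 98.0 CPM, with a ratio of 0.94 (0.79 to 1.09) for wt/flox against wt/wt and -0.54 (-0.68 to -0.41) for flox/flox against wt/flox. Cyp2c50 stood at 225, 323 and 269 CPM. Cyp2c68 was at 63.0, 90.0 and 62.7 CPM and Cyp2c37 at 40.8, 55.7 and 39.8 CPM, so wt/wt and flox/flox did not differ beyond counting error for either gene. Cyp2c54 differed from its neighbours in being highest in flox/flox, at 82.5, 94.8 and 123 CPM. Cyp2c23, an arachidonic acid epoxygenase, stood at 211, 178 and 195 CPM.

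Cyp2d genes, relatives of the human drug-metabolising CYP2D6, summed to 913, 1003 and 943 CPM. Their most abundant gene, Cyp2d9, a steroid hydroxylase known to be higher in male mice, stood at 319, 365 and 351 CPM. Cyp2d10 was at 221, 194 and 220 CPM and Cyp2d26 at 207, 267 and 212 CPM, with flox/flox within counting error of wt/wt in both. Cyp2d40 (ENSMUSG00000068083, chromosome 15, 82759833 to 82764183) differed from them. Its level was 75.8, 85.6 and 41.0 CPM, with flox/flox at -0.89 (-1.08 to -0.69) against wt/wt and -1.06 (-1.26 to -0.87) against wt/flox. In barcodes of at least 2000 UMIs these ratios were -1.58 and -0.60. Cyp2d22, at 89.4, 90.7 and 117 CPM, was highest in flox/flox. Cyp2d12 stood between 1.03 and 1.84 CPM.

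Cyp2f2 (ENSMUSG00000052974, chromosome 7, 27119909 to 27133660), which oxidises naphthalene and is known from periportal hepatocytes and lung club cells, ran against Cyp2e1. It stood at 740.5, 942 and 1193 CPM, with no overlap of counting intervals. The ratio of flox/flox was 0.69 (0.64 to 0.74) against wt/wt and 0.34 (0.30 to 0.39) against wt/flox. From wt/wt to wt/flox it was 0.35 (0.30 to 0.40). Without cluster 3 the first 2 ratios were 0.40 and 0.04. That setting was chosen after seeing the data, and cluster 3 was itself drawn from these expression values. In barcodes of at least 2000 UMIs they were 1.16 and 0.70.

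Among the Cyp2j genes, which make epoxides of arachidonic acid, Cyp2j5 stood at 188, 216 and 258 CPM and Cyp2j6 at 30.1, 28.7 and 41.5 CPM, both highest in flox/flox. Cyp2j9 stood between 4.65 and 8.15 CPM and was highest in wt/wt. Cyp2u1 (ENSMUSG00000027983, chromosome 3, 131288441 to 131303227), a hydroxylase of long-chain fatty acids, stood at 56.1, 72.1 and 37.4 CPM. Its flox/flox level was below both others, at -0.58 (-0.80 to -0.37) against wt/wt and -0.94 (-1.15 to -0.74) against wt/flox, but both ratios turned positive in barcodes of at least 2000 UMIs, at 0.97 and 0.87. Cyp2r1, a vitamin D 25-hydroxylase, stood between 6.85 and 9.18 CPM, within counting error in each comparison.

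Cyp2b10 (ENSMUSG00000030483, chromosome 7, 25897620 to 25926624), the classical CAR target, was near the limit of detection, with 15, 3 and 37 UMIs (1.94, 0.426 and 4.53 CPM). The ratio of flox/flox was 1.22 (0.32 to 2.19) against wt/wt and 3.41 (1.75 to 5.75) against wt/flox. From wt/wt to wt/flox it was -2.19 (-4.62 to -0.36). In barcodes of at least 1000 UMIs the last 2 ratios were 2.29 and -0.68. Cyp2g1 (chromosome 7, 26808892 to 26821205), otherwise known from olfactory mucosa, had 9, 3 and 35 UMIs (1.16, 0.426 and 4.28 CPM). Its flox/flox ratios were 1.88 (0.79 to 3.12) and 3.33 (1.66 to 5.67), and 1.30 and 1.98 in barcodes of at least 1000 UMIs. A UMI of Cyp2b10 was seen in 0.477% of hepatocyte-like barcodes of flox/flox (0.336 to 0.658) and in 0.340% of T or NK-like barcodes of that library (0.0412 to 1.22). The latter rests on 2 of 588 barcodes and does not settle whether the hepatocyte share lies above background. In wt/wt the shares were 0.184% (0.103 to 0.304) and 0.608% (0.0737 to 2.18), the latter from 2 of 329 barcodes. In wt/flox they were 0.0416% (0.00858 to 0.122) and 0 of 509 barcodes. For Cyp2g1 the flox/flox shares were 0.439% (0.304 to 0.613) and 0 of 588 barcodes, with an interval up to 0.625%. Both genes lie in the chromosome 7 stretch between Cyp2s1 and Cyp2f2 that also holds the Cyp2a genes. There Cyp2a4 stood at 1.03, 1.14 and 88.7 CPM and Cyp2a5 at 61.2, 54.3 and 178 CPM. Cyp2a12 differed less, at 194, 205 and 241 CPM, and Cyp2a22 had 3, 0 and 3 UMIs.

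To place the genes along the portal to central axis, hepatocyte-like barcodes of each library were cut into 3 equal ranges by a score from 24 pericentral and 26 periportal genes, none of them a P450 gene of the set. The ranges had similar depth, with medians of 813 to 936 UMIs, and are ranges of a score, not cell types. By this split 7 of the 30 measured genes were higher in the pericentral range in all 3 libraries with intervals above 0. They were Cyp2e1, Cyp3a11, Cyp2c29, Cyp2c37, Cyp2c50, Cyp2c54 and Cyp2c68. The periportal range was higher in all 3 libraries for Cyp2f2, Cyp3a25 and Cyp2c23, and the other 20 met neither condition. All 10 were among the 22 genes with at least 200 UMIs. Of all genes outside the score, 1% of those with at least 20 UMIs met the pericentral and 0.824% the periportal condition. Among those with at least 200 UMIs the shares were 1.53% and 1.26%.

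**Figure D3:**
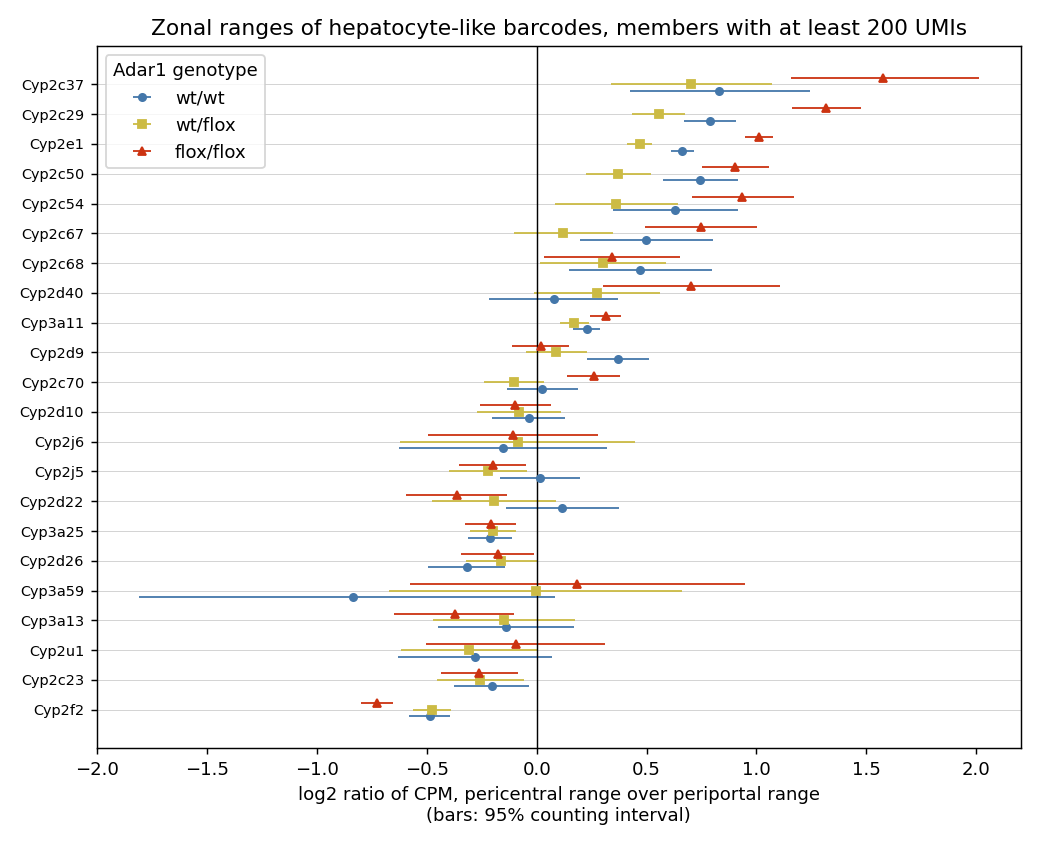
Log2 ratio of CPM in the pericentral over the periportal score range for the 22 genes with at least 200 UMIs, by library, with 95% counting intervals. Cyp2c37, Cyp2c29 and Cyp2e1 lie furthest to the pericentral side in flox/flox, where Cyp2f2 also lies furthest to the periportal side.

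The spread between ranges was widest in flox/flox for several genes. For Cyp2e1 the log2 ratio of the pericentral over the periportal range was 0.66 (0.61 to 0.72), 0.47 (0.41 to 0.53) and 1.01 (0.95 to 1.07). For Cyp2c29 it was 0.79 (0.67 to 0.91), 0.55 (0.43 to 0.67) and 1.32 (1.16 to 1.47). Cyp2f2 gave -0.49 (-0.58 to -0.39), -0.47 (-0.56 to -0.39) and -0.73 (-0.80 to -0.65). For these 3 genes the flox/flox interval did not overlap those of the other libraries. Cyp2c37 gave 0.83, 0.70 and 1.58, with intervals of wt/wt and flox/flox that overlapped. Cyp3a25 gave -0.21, -0.20 and -0.21, the same in each library, and Cyp3a11 gave 0.23, 0.17 and 0.31. Of the score genes, Glul gave 2.24, 1.81 and 2.44, Cyp1a2 1.97, 1.45 and 1.77, and Hal -1.21, -1.03 and -1.24. Their spread between ranges was also smallest in wt/flox. Sds went the other way, at -1.63, -1.78 and -1.55, widest in wt/flox. The part of the score in the spreads of the genes above was not tested.

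Levels were also compared between libraries within a range. Each library was cut by itself, so a range is a rank within its library and not a fixed liver position. Score genes differed between libraries, among them Gstm3 at 52.4, 41.8 and 251 CPM and Glul at 96.6, 205 and 221 CPM. How this bears on the ratios by range was not tested. The ratio of flox/flox against wt/wt for Cyp2c29 was -1.01 (-1.17 to -0.85) in the periportal range and -0.48 (-0.59 to -0.37) in the pericentral range. For Cyp2e1 it was -0.71 (-0.78 to -0.65) and -0.37 (-0.41 to -0.32). Over wt/flox, Cyp2e1 was at -0.64 (-0.71 to -0.57) in the periportal range and at -0.10 (-0.15 to -0.04) in the pericentral range. In wt/flox against wt/wt the order was the other way for Cyp2e1, at -0.07 (-0.14 to -0.01) in the periportal and -0.27 (-0.32 to -0.22) in the pericentral range. Cyp2f2 was at 0.77 (0.70 to 0.85) against wt/wt in the periportal range and 0.53 (0.44 to 0.63) in the pericentral range, and Cyp3a25 at -0.54 in both.

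Transcripts of these genes were found in barcodes of every other class, where free hepatocyte RNA adds UMIs. As a share of the hepatocyte level, the median over the 22 genes with at least 200 UMIs was 56.5% in T or NK-like, 58.7% in endothelial-like, 43.3% in Kupffer-like and 70.2% in neutrophil-like barcodes. Albumin, which these cells should lack, stood at 54.0%, 58.3%, 41.0% and 72.1% in the same classes. In no class was the counting interval of a gene wholly above the hepatocyte level. Cyp2d22 was at 93.0% (76.3 to 112) in endothelial-like barcodes against 31.5% (23.0 to 42.1) in T or NK-like ones. Cyp2u1 was at 80.0% (59.6 to 105) in endothelial-like barcodes.

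**Figure D4:**
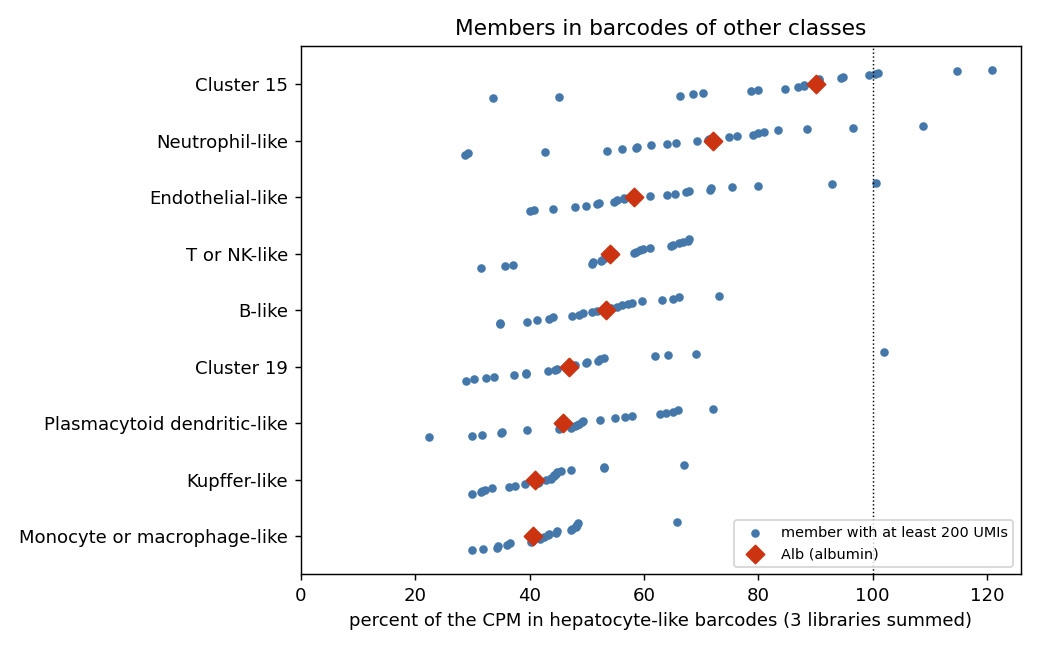
Level of the 22 genes with at least 200 UMIs in each other class as percent of the hepatocyte-like level, with libraries summed; 1 point per gene, diamonds for Alb, and the dotted line at 100%. Points of a class gather around its albumin value, and Cyp2d22, at 93.0%, is among the highest in endothelial-like barcodes.

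Library differences were also present in barcodes of other classes. In T or NK-like barcodes Cyp2e1 stood at 1548, 1349 and 851 CPM, Cyp3a11 at 913, 952 and 549 CPM and Cyp2c29 at 320.0, 344 and 163 CPM. Cyp2f2, at 480.0, 476 and 509.7 CPM, was nearly level there, while it stood at 379, 534 and 576 CPM in endothelial-like and at 328, 395 and 490.0 CPM in Kupffer-like barcodes, in the order of the hepatocyte-like class. A UMI of Cyp2e1 was present in 82.8%, 80.9% and 68.2% of hepatocyte-like barcodes, against 78.4%, 70.7% and 51.5% of T or NK-like ones, which had median depths of 988, 963 and 966 UMIs. For Cyp2f2 the shares were 46.8%, 56.0% and 61.6%, against 38.9%, 36.9% and 38.3%. With each barcode thinned to 1000 UMIs, which left out 5800, 4942 and 4871 shallower hepatocyte-like barcodes, the Cyp2e1 shares were 80.3%, 78.9% and 64.3% and the Cyp2f2 shares 46.4%, 54.3% and 59.6%. How much of each hepatocyte-like value is free RNA was not tested.

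Genes that serve or control the P450 enzymes were read from fixed lists. The partners list holds genes that pass electrons, bind or make haem, or act in haem breakdown. Of 16 measured partners, 1 was at least 1.5-fold higher and 2 lower in flox/flox than in wt/wt. Against wt/flox, 1 was higher and 0 lower. The shares over all genes, for these and the next lists, were 14.3% and 7.42% against wt/wt and 13.3% and 9.80% against wt/flox. Por, the oxidoreductase that feeds every microsomal P450, stood at 148, 53.3 and 134 CPM. It was low in wt/flox only, at -1.47 (-1.64 to -1.30) against wt/wt. Cytochrome b5 (Cyb5a) stood at 1654, 2142 and 1572 CPM, Pgrmc1, a haem-binding partner, at 600.0, 718 and 902 CPM, and Alas1, the first enzyme of haem synthesis, at 229, 272 and 261 CPM.

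Of 38 measured regulators, 3 were higher and 4 lower in flox/flox than in wt/wt, and 8 higher and 12 lower than in wt/flox. The receptor genes Nr1i2 (PXR) and Nr1i3 (CAR) stood at 59.6, 41.5 and 49.7 CPM and at 80.2, 68.2 and 102 CPM. Rxra, their partner, was at 165, 145 and 148 CPM and Hnf4a at 312, 265 and 356 CPM. Stat5b, which relays growth hormone, was at 69.2, 44.1 and 42.6 CPM, and Bcl6, a repressor in the same pathway, at 41.4, 31.1 and 10.0 CPM. Onecut1, Foxa1, Foxa2, Foxa3, Cish, Socs2, Ppargc1a, Ahr, Tef and Dbp were the other regulators at least 2-fold apart in a comparison. Highest in wt/flox were Onecut1, at 14.9, 90.7 and 39.3 CPM, Foxa2, at 25.9, 63.4 and 35.1 CPM, and Cish, with 18, 362 and 70 UMIs. Lowest there were Ppargc1a, at 60.2, 20.9 and 89.1 CPM, Foxa3, at 75.5, 37.7 and 57.5 CPM, and Dbp, at 5.82, 3.13 and 9.42 CPM. Values of Foxa1, Socs2, Ahr and Tef are not given here. Of 51 measured conjugation and transport genes, 10 were higher and 2 lower in flox/flox than in wt/wt, or 19.6% and 3.92%. Of 22 measured genes known to be male-biased in liver, 4 were higher and 5 lower in flox/flox than in wt/wt, and 1 higher and 8 lower than in wt/flox. Of 12 female-biased ones, 2 were higher and 1 lower than in wt/wt, and 7 higher and 0 lower than in wt/flox. The wt/flox library itself differed from wt/wt in these lists. There 10 male-biased genes were higher and 1 lower in wt/flox, and 0 female-biased genes were higher and 8 lower. The shares over all genes for wt/flox against wt/wt were 9.93% and 6.95%.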

How the data were processed

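The deposited values were UMI counts per gene and barcode, written by Cell Ranger 6.1.1 per the file headers. Seurat and the build mm10 are named in the submitters' processing notes. The labels' protocols describe collagenase perfusion, low-speed spins and Percoll, and a polyA kit reading transcript ends. Each library held 10000 barcodes, with 9744380, 10067929 and 10756790 UMIs for wt/wt, then wt/flox, then flox/flox. UMIs collapse PCR copies.

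Barcodes with at least 500 UMIs, 250 genes and at most 40% mitochondrial UMIs were kept and clustered in scanpy 1.11.5 (Python 3.11.15; 2000 variable genes, 30 components, 15 neighbours, Leiden resolution 1). No doublet caller was run, so doublets remain. A cluster was named X-like from at least 3 markers at 4-fold in 5% of barcodes. Clusters without such markers that held hepatocyte markers were called hepatocyte-like, and clusters 15, 19 and 22 stayed unnamed. T and NK cells were pooled. The naming thresholds were chosen after seeing the data, and free hepatocyte RNA was in every class.

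UMIs were summed per class and library as CPM. Intervals are exact Poisson (CPM), conditional binomial (ratios) and Clopper-Pearson (shares), at 95%, and cover counting error only. Counts under 3 were set to 3 in ratios. Genes were named by a rule: levels from 200 UMIs, ratios from 1.5-fold, and under 200 UMIs (minimum 20) values from 2-fold, with intervals that leave out 0. The summing script was tested on simulated data. Members and lists were chosen with earlier results of these data known. Tried alternatives, 9 in number, are given at the end.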

Additional observations from a re-analysis of the deposited data

How the results depend on the processing

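The cause of the following shifts was not tested. With barcodes of at least 2000 UMIs (118, 99 and 374 barcodes; 21 genes measured) the median log2 ratio was 0.78 for flox/flox against wt/wt, with 14 genes higher and 1 lower. Over wt/flox 7 genes were higher and 3 lower, and in wt/flox against wt/wt the median was 0.45, with 9 higher and 1 lower. The median for flox/flox against wt/flox was 0.34 there, and Cyp2u1 reversed to 0.87. Medians over all genes at that setting were 0.16 for flox/flox against wt/wt and 0.08 for flox/flox against wt/flox. For wt/flox against wt/wt the all-gene median was 0.07. Shares of all genes higher or lower at that setting are not given, so these counts are not results about the P450 genes. With genes of at least 100 UMIs, 27 were measured, and the flox/flox against wt/wt median was -0.0080, against 0.07 for all genes. Of the 27, 3 were higher in flox/flox than in wt/wt and 0 were higher than in wt/flox. In wt/flox against wt/wt, 1 was lower. Shares of all genes at this setting are not given either. The summed level (wt/wt first, flox/flox last) was 7589, 7843 and 7156 CPM from 1000 UMIs per barcode, 4386, 4956 and 5752 CPM from 2000 UMIs, and 7155 CPM in flox/flox at up to 20% mitochondrial UMIs. It was 7811, 8212 and 7149 CPM without clustering, 8049, 8498 and 7428 CPM with equal weight per barcode, 10079.7, 10680.1 and 9624 CPM without mitochondrial and the 20 highest genes, and 7799, 8218 and 6494 CPM without cluster 3, an alternative chosen after seeing the data. Under each of these settings except the 2000 UMI minimum, flox/flox was lowest. No paired analysis was possible because each genotype had 1 library. Depth limits Cyp2b10, Cyp2g1 and Cyp2d12, which had 31 to 55 UMIs.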
